A study of Mus musculus with 30 samples.

Results

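The 10 immediate early genes followed through livers of mouse offspring were Fos, Fosb, Jun, Junb, Jund, Egr1, Ier2, Ier3, Atf3 and Myc. They were chosen by symbol from the 17990 genes of the deposited tables, all 10 were found, and all 10 passed the filter on low counts in both sexes. The livers came from ICR mice, which are outbred, at an age of 10 weeks, and the dams had drunk 2,4-BPS, BPSIP, BPS, E2 or solvent alone from the start of pregnancy to weaning, about 40 days. Bisphenol S (BPS) joins phenol rings through a sulfone group, 2,4-BPS is its positional isomer, BPSIP carries an isopropyl ether on a hydroxyl group, and E2 is estradiol. Water held 10 ng/mL of the compound and 0.001% ethanol, adjusted to keep the daily intake near 5 µg per kg, and control dams received the ethanol only. Each group had 8 dams. In each sex the groups were 2,4-BPS, BPSIP, BPS, E2 and control, with 3 libraries each, every library made from the RNA of a single offspring liver, and litters of different dams supplied the offspring. Exposure of the dams ended at weaning, per the labels, so the values describe adult livers. The question was whether these genes still differed between exposed and control livers, and whether compounds and sexes differed.

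Immediate early genes are switched on within minutes of a stimulus, without new protein synthesis, mostly by MAP kinases acting through serum response factor and CREB, and their transcripts decay quickly. FOS proteins pair with JUN proteins to form AP-1, a transcription factor of the leucine zipper class, and ATF3 is a related zipper protein that often represses. EGR1 is a zinc finger factor, MYC drives growth and ribosome production, and IER2 and IER3 are small response proteins. In liver the class is known from regeneration after partial hepatectomy, from feeding and hormone signals, and from handling of the tissue, since it also responds to stress and warm ischaemia during collection.

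Libraries held 29711711 to 37719069 counts, and levels rest on few counts for Fosb, with 1 to 34 counts per library, for Ier3, with 10 to 87, and for Fos, with as few as 17. The sex labels were checked first. The sum of 4 Y-linked genes was 131 to 169 CPM (counts scaled to the library total with TMM factors) in exposed males and at most 0.543 CPM in females, but 84.7 to 95.3 CPM in the libraries labelled male control. Those 3 libraries also held 2949 to 3385 CPM of 8 female-specific liver genes, against 3.21 to 13.3 CPM in exposed males and 5519 to 7240 CPM in females. Whether they hold RNA of female livers was not tested. If they did, the Y-linked level would correspond to a share of 41.8%. Genes differed in where those libraries lay between exposed males and female controls. The 8 genes summed to a median of 3074 CPM there, 6537 CPM in female controls and 3.72 to 11.8 CPM in the exposed male groups. Alb averaged 39325 to 51130 CPM in the exposed male groups, 85028 CPM in the libraries labelled male control and 85797 CPM in female controls, and Sult3a1, one of the 8 genes, averaged 0.137 to 0.593, 247 and 244 CPM in the same order. Values of the 10 genes against the libraries labelled male control are therefore given beside 2 further comparisons: with the mean of the other 3 exposed male groups, and with exposed male libraries mixed in the computer with that assumed share of female control libraries, called the mixed comparison. Both are calculations, and neither replaces a male control group. In the mixed comparison the same 3 female control libraries enter every exposed group. Its standard errors and p-values therefore do not measure the spread between independent animals, and its calls are descriptive. Hepatocyte markers (6 of 6 detected) summed to 56885 to 79004 CPM in exposed males, against 103959 to 108778 CPM in the libraries labelled male control, and to 96349 to 128383 CPM in females. In males Alb made up the largest part of this sum. Against the libraries labelled male control, 1, 2, 1 and 2 of 6 markers were higher after 2,4-BPS, BPSIP, BPS and E2. In that order 3, 3, 4 and 3 were lower (adjusted p under 0.05), beside 38.2%, 34.9%, 43.2% and 33.6% of all genes in either direction. Median log2 changes of the 6 markers were −0.10, −0.12, −0.24 and −0.18. In bulk tissue, fewer cells of a type and less RNA per cell cannot be told apart.

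Markers of other cell types moved with several groups, counted at an adjusted p under 0.05 against the control libraries of each sex. Of all genes, 19.3%, 38.6%, 16.8% and 21.0% were called in females after 2,4-BPS, BPSIP, BPS and E2. In males 38.2%, 34.9%, 43.2% and 33.6% were called in that order. Neutrophil markers rose as 7 of 8 tested in male E2 livers, where their sum was 37.5 to 42.4 CPM, against 3.71 to 13.4 CPM in the libraries labelled male control, in which Ly6g was at 0. Of the 8, 2 rose after male 2,4-BPS, 1 fell after male BPSIP and 1 rose after male BPS. In females neutrophil markers rose as 5 of 9 after BPSIP and fell as 5, 8 and 6 of 9 after 2,4-BPS, BPS and E2. Macrophage markers fell as 9, 9, 10 and 10 of 10 in males after 2,4-BPS, BPSIP, BPS and E2. Their sums were 631 to 810 CPM in exposed males and 1029 to 1118 CPM in the libraries labelled male control. Females had 1058 to 2046 CPM. In females macrophage markers rose as 10 of 10 after 2,4-BPS and 9 of 10 after BPSIP, and fell as 4 and 7 of 10 after BPS and E2. The male marker counts were not set against a further reference. Muscle markers rose in 2,4-BPS livers, as 4 of 5 in males (11.0 to 23.4 CPM, against 2.34 to 3.39 CPM in the libraries labelled male control) and as 3 of 5 in females (6.04 to 34.1 CPM, against 2.39 to 5.28 CPM in control livers). Endothelial and stellate cell markers were counted after 2,4-BPS, BPSIP, BPS and E2 in that order. Endothelial markers rose as 2, 4, 1 and 1 and fell as 3, 0, 4 and 4 of 6 in males. In females 2, 1, 1 and 1 rose and 0, 4, 0 and 2 fell. Stellate cell and fibroblast markers rose as 1, 3, 2 and 3 and fell as 2, 1, 1 and 1 of 6 in males. Among females 2, 4, 2 and 0 rose and 0, 2, 1 and 1 fell. The part of these cell types in the values of the 10 genes was not tested.

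**Figure D1:**
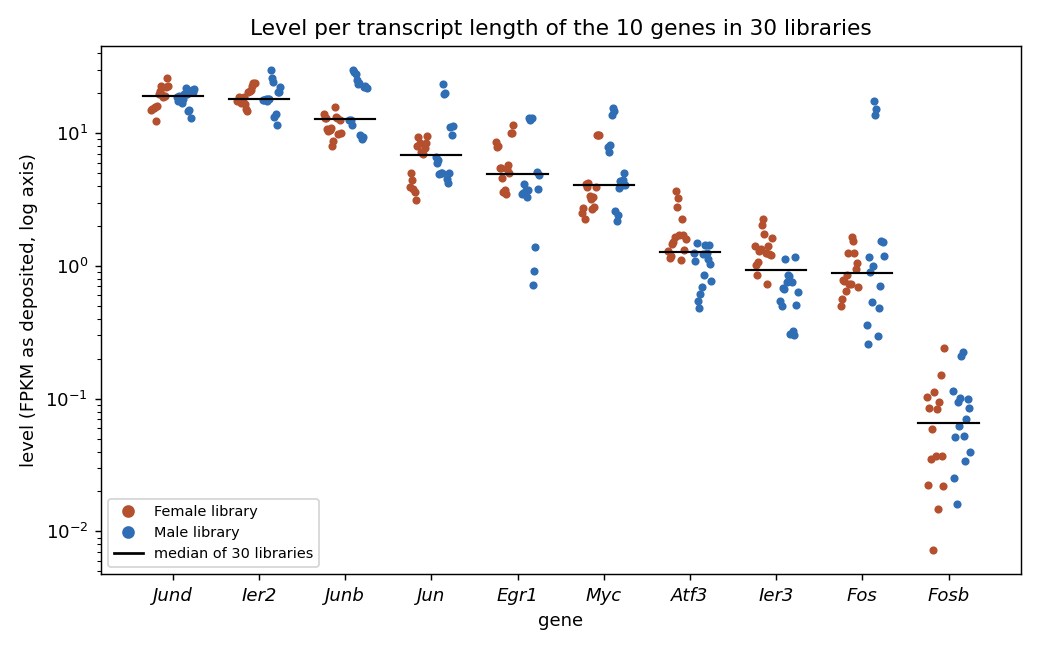
Deposited FPKM of the 10 genes in 30 libraries on a log axis, ordered by median; points are libraries, bars are medians over 30 libraries. Jund and Ier2 lie highest at medians of 18.9 and 18.1 FPKM and Fosb lowest at 0.0661 FPKM, while Fos has 3 male libraries above 13 FPKM.

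Levels per length (deposited FPKM) ordered the genes as Jund, Ier2, Junb, Jun, Egr1, Myc, Atf3, Ier3, Fos and Fosb. Median FPKM over 30 libraries was 18.9 for Jund and 18.1 for Ier2, then 12.8 for Junb, 6.80 for Jun, 4.94 for Egr1 and 4.05 for Myc. The other 4 lay at 1.28 for Atf3, 0.935 for Ier3, 0.877 for Fos and 0.0661 for Fosb. Fos, next to last by its median, spanned the widest range of group means, 32.4-fold between male BPSIP and male BPS livers. Egr1 followed with 13.3-fold between the same groups, while Jund, the constitutive JUN, spanned 1.70-fold.

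Promoters are shown for Fos, Jun and Junb, the AP-1 genes that passed together in male BPSIP livers, and for Atf3, which did not pass there. Each sequence is the 250 bases before the RefSeq start on GRCm38.p6, read 5′ to 3′ on the gene's strand. Capitals mark a CRE core (TGACG, or CGTCA on the other strand) or a TATA box (TATAAA). Fos, chr12:85473640-85473889, plus strand; Jun, chr4:95052223-95052472, minus strand; Junb, chr8:84978749-84978998, minus strand; Atf3, chr1:191183334-191183583, minus strand.
Fos: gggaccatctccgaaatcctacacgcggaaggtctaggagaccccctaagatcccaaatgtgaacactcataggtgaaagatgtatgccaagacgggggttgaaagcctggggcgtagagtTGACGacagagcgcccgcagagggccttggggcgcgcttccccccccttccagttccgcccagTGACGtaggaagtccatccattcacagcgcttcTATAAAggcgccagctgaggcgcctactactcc
Jun: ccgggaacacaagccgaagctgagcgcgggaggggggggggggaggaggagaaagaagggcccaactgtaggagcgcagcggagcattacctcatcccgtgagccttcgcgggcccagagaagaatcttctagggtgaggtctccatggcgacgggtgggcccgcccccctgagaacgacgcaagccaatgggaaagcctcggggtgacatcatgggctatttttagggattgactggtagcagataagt
Junb: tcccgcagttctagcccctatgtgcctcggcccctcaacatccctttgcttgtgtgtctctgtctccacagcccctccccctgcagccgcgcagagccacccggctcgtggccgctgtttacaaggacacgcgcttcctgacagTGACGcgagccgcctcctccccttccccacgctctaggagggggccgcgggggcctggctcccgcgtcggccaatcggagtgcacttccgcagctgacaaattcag
Atf3: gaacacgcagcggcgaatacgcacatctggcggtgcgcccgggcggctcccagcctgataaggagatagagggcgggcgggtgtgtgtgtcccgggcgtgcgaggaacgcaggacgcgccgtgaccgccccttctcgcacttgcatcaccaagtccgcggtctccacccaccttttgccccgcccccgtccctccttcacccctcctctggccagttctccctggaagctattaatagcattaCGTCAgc

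The Fos promoter held CRE cores at −129 to −125 and −66 to −62 and a TATA box at −33 to −28, Junb a core at −106 to −102, and Atf3 one on the other strand at −7 to −3. RefSeq promoters were at hand for 7 of the 10 genes, and a core stood in 4 of the 7 (Fos, Fosb, Junb and Atf3) and in 17.8% of 32851 promoters of the same length; a TATA box stood in 12.4% of them. An EGR site (GCGGGGGCG) was matched in the Fosb promoter at −50 to −42 and in 2.57% of all. The other motifs searched on both strands were the CArG box bound by serum response factor, the full CRE (TGACGTCA), the AP-1 site (TGANTCA), a second EGR site (GCGTGGGCG) and the E-box (CACGTG). None was matched in the 7 windows, against 1.47%, 1.55%, 6.75%, 0.536% and 6.02% of all promoters in that order. A match is only a run of letters, and no match says nothing about a factor.

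Counts of genes past an adjusted p of 0.05 (edgeR quasi-likelihood test, Benjamini-Hochberg adjustment over all genes of a sex) set the frame. In female livers 2 of the 10 genes passed after 2,4-BPS, 1 higher and 1 lower, where 19.3% of all genes did (10.9% higher and 8.42% lower), so that share lay at the background. After BPSIP 7 passed, 4 higher and 3 lower, with 38.6% of all genes (19.4% higher and 19.2% lower). After BPS 6 passed, 5 higher and 1 lower, with 16.8% of all genes (9.32% higher and 7.50% lower). After E2 5 passed, all higher, with 21.0% of all genes (10.4% higher and 10.6% lower). Among males, against the libraries labelled male control, 4 genes passed after 2,4-BPS, 2 higher and 2 lower, with 38.2% of all genes (18.9% higher and 19.4% lower), again the background share. After BPSIP 6 passed, 5 higher and 1 lower, beside 34.9% of all genes (17.4% in each direction). After BPS 6 passed, all lower, beside 43.2% of all genes (20.6% higher and 22.7% lower). After E2 6 passed, 5 higher and 1 lower, beside 33.6% of all genes (17.2% higher and 16.4% lower), but 3 did without E2 replicate 3. In a joint test of the 5 groups 8 of 10 passed in each sex, all but Fosb and Ier3, where 58.5% of all genes passed in females and 63.9% in males. The 10 genes had a median log2 fold change of 0.75 in male BPSIP and −0.48 in male BPS livers, with −0.01 and −0.02 over all genes. These medians were 0.54 and −0.87 against the other exposed males and 0.53 and −0.27 in the mixed comparison. For BPS the other exposed males hold the BPSIP group. In the same order of exposures, the medians in females were 0.06, 0.33, 0.40 and 0.51 after 2,4-BPS, BPSIP, BPS and E2, with medians over all genes between −0.01 and 0.00.

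**Figure D2:**
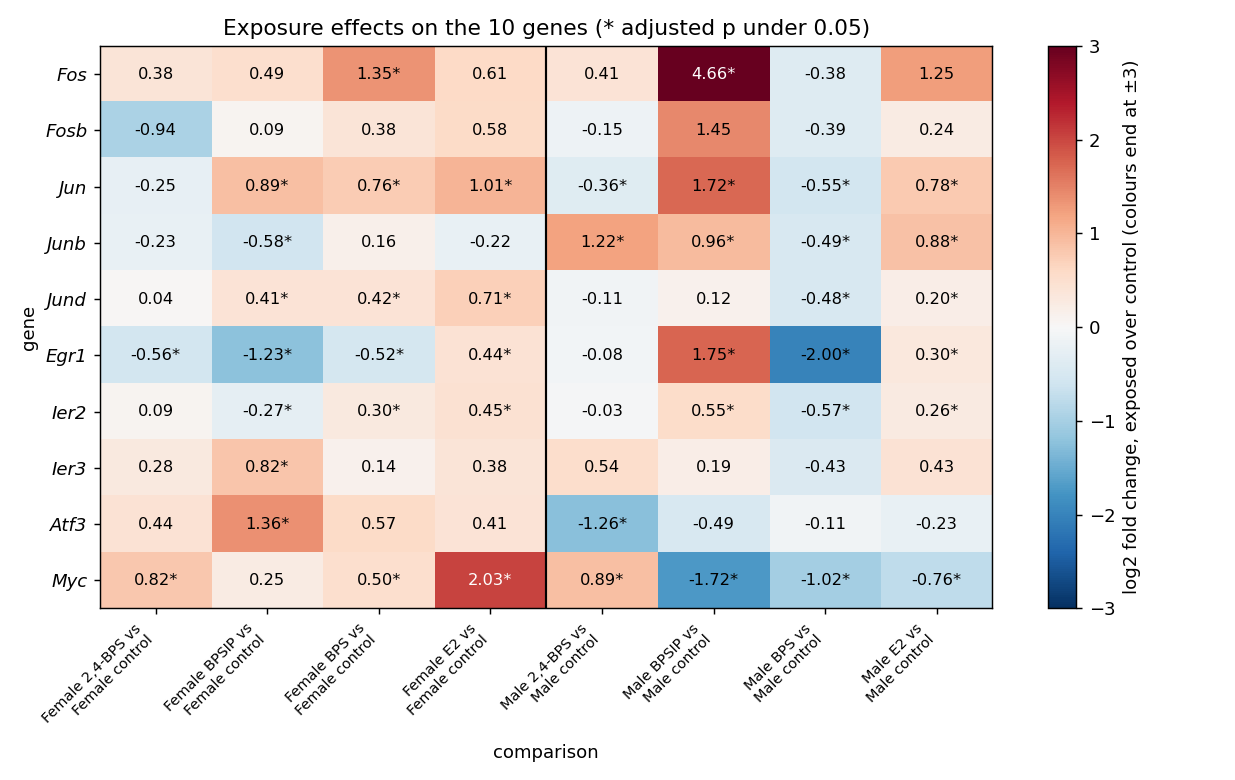
Log2 fold change of each gene (rows) in each exposure against the control group of its sex (columns), red higher and blue lower in exposed livers, with a star where the adjusted p is under 0.05. Fos in male BPSIP livers has the largest value, 4.66, and male BPS livers hold 6 starred values, all below 0; the male columns use the libraries labelled male control.

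**Figure D3:**
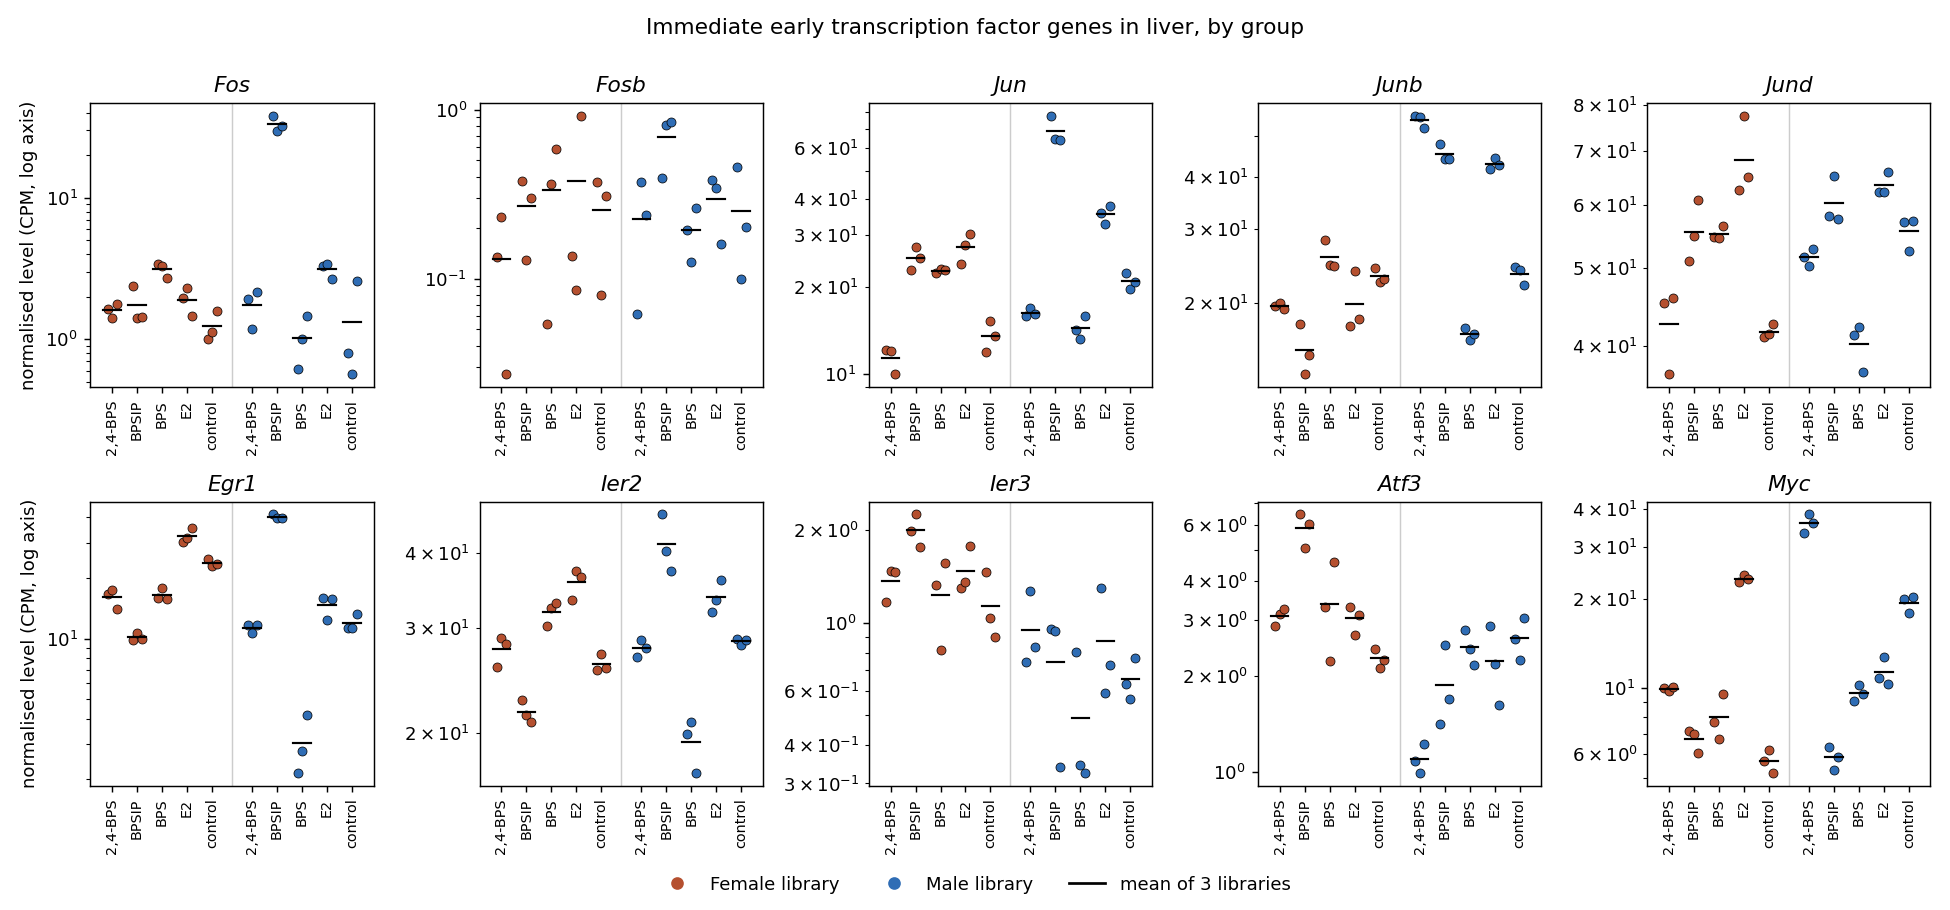
CPM of the 10 genes in each library on a log axis, by sex and group, with bars at the mean of 3 libraries. Male BPSIP libraries stand apart for Fos, at 29.7 to 37.8 CPM, and for Egr1, at 39.6 to 41.4 CPM, and the male control points are the libraries labelled so.

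Fos, the founding FOS protein gene, stood out in male BPSIP livers. It had 37.8, 29.7 and 32.2 CPM there, against 0.806, 0.565 and 2.58 CPM in the libraries labelled male control. Every BPSIP library lay above every other library of either sex, the highest of which had 3.40 CPM. The log2 fold change was 4.66 ± 0.42 (± is the standard error of the fit throughout; 25.2-fold; adjusted p = 3.42e-06). It was 4.23 ± 0.27 against the other 3 exposed male groups (adjusted p = 1.79e-07) and 3.85 ± 0.34 in the mixed comparison (adjusted p = 1.45e-06). Male E2 livers had 3.30, 3.40 and 2.67 CPM, all above the libraries labelled male control. That change, 1.25 ± 0.45, missed the threshold (adjusted p = 0.0557) and passed without replicate 3 of those libraries, at 2.20. It was −0.31 against the other exposed males and 0.78 in the mixed comparison, neither past the threshold. The same library decided male 2,4-BPS livers (1.92, 1.18 and 2.15 CPM), where the value was 0.41 with it (adjusted p = 0.562) and 1.36 without it (adjusted p = 0.000195). The mixed comparison gave 0.21 (adjusted p = 0.746). Against the other exposed males the sign there turned, to −1.43 (adjusted p = 0.0143), since those hold the BPSIP group. Male BPS livers had 0.612, 1.00 and 1.46 CPM (−0.38 ± 0.53, adjusted p = 0.615, and −0.26 mixed). Against the other exposed males, which again hold the BPSIP group, the value was −2.49 (adjusted p = 0.000477).

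In females Fos kept to 1.01 to 3.40 CPM. BPS livers had 3.40, 3.29 and 2.70 CPM, against 1.01, 1.12 and 1.59 CPM in control livers. The groups did not overlap, and Fos rose 2.54-fold (1.35 ± 0.28, adjusted p = 0.000625). The other exposures gave 0.38 ± 0.29 for 2,4-BPS, 0.49 ± 0.29 for BPSIP and 0.61 ± 0.29 for E2, none past the threshold (adjusted p = 0.412, 0.179 and 0.138). BPSIP livers, with 2.38, 1.42 and 1.44 CPM, thus lay in the same range as the rest of the females, unlike those of males.

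Fosb, a FOS protein of the late phase of the response, was barely transcribed. Male BPSIP livers had 0.394, 0.815 and 0.849 CPM (12, 26 and 25 counts), against 0.455, 0.0997 and 0.201 CPM in the libraries labelled male control, which overlap. The change of 1.45 ± 0.74 missed the threshold (adjusted p = 0.128). Against the other 3 exposed male groups it was 1.55 ± 0.56 and passed (adjusted p = 0.0271), and in the mixed comparison it was 0.97 ± 0.53 (adjusted p = 0.15). Elsewhere values against control ran between −0.94 and 0.58 and none passed, nor did the other male values against the other exposed males (−0.90 to −0.06) or in the mixed comparison (−0.26 to 0.11); a female E2 library at 0.916 CPM was the highest of all, beside 0.135 and 0.0852 CPM in the others of its group.

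Jun encodes the main partner of FOS. In male BPSIP livers it had 77.4, 64.5 and 64.2 CPM, against 22.3, 19.7 and 20.8 CPM in the libraries labelled male control, and it rose 3.30-fold (1.72 ± 0.08, adjusted p = 1.08e-27). The other references gave 1.77 ± 0.06 and, mixed, 1.08 ± 0.07, both past the threshold. Male E2 livers came next with 35.9, 33.0 and 38 CPM (0.78 ± 0.08, adjusted p = 4.31e-12; 0.51 and 0.29 with the other references). Jun fell in male 2,4-BPS livers (15.8, 16.8 and 16.1 CPM; −0.36 ± 0.09, adjusted p = 0.000581) and in male BPS livers (14.2, 13.2 and 15.8 CPM; −0.55 ± 0.09, adjusted p = 3.58e-07). Both kept their direction and passed against the other exposed males (−1.01 and −1.27) and in the mixed comparison (−0.49 and −0.60).

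In females Jun was higher after 3 of the 4 exposures. It had 22.9, 27.4 and 25.1 CPM in BPSIP, 22.3, 23.1 and 22.8 CPM in BPS and 24.0, 27.8 and 30.2 CPM in E2 livers, against 11.9, 15.2 and 13.5 CPM in control livers. None of these groups overlapped with the controls, and the changes were 0.89 ± 0.10, 0.76 ± 0.10 and 1.01 ± 0.10 in that order (adjusted p = 4.78e-09, 6.37e-07 and 6.72e-10). In 2,4-BPS livers the level was 12.1, 12.0 and 9.96 CPM (−0.25 ± 0.11, adjusted p = 0.105). Without the first control library the last value became −0.33 and passed (adjusted p = 0.0463). Set against the mean of the other 3 exposed female groups, 2,4-BPS gave −1.13 (adjusted p = 1.22e-12) and BPS 0.21 (adjusted p = 0.0566).

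Junb encodes a JUN protein that can restrain JUN. It had 55.7, 55.4 and 52.1 CPM in male 2,4-BPS livers, 47.8, 44.0 and 44.1 CPM in male BPSIP livers and 41.8, 44.4 and 42.6 CPM in male E2 livers, against 24.3, 24.0 and 22.1 CPM in the libraries labelled male control. The rises were 1.22 ± 0.07, 0.96 ± 0.07 and 0.88 ± 0.07 (adjusted p = 4.96e-23, 5.42e-18 and 1.61e-16), with 0.76, 0.42 and 0.32 against the other exposed males and 0.78, 0.59 and 0.53 in the mixed comparison, all past the threshold. Male BPS livers went the other way with 17.5, 16.3 and 16.9 CPM (−0.49 ± 0.08, adjusted p = 2.81e-07; −1.50 against the other exposed males and −0.28 mixed, both past the threshold). Junb was highest in the 2,4-BPS males, where Fos was at 1.18 to 2.15 CPM. In females Junb fell in BPSIP livers, with 17.9, 13.6 and 15.1 CPM against 24.3, 22.5 and 22.8 CPM in control livers (−0.58 ± 0.10, adjusted p = 1.85e-05). The other female values were −0.23 for 2,4-BPS, 0.16 for BPS and −0.22 for E2, none past the threshold. With only the 6 libraries compared, 2,4-BPS passed (−0.24, adjusted p = 0.0252). Against the mean of the other 3 exposed female groups BPS passed (0.51, adjusted p = 7.87e-06). Within E2, 17.7 and 18.3 CPM stood beside 23.9 CPM, and without that second library the change became −0.36 and passed (adjusted p = 0.00665). Prdx2, a peroxiredoxin gene that overlaps Junb on the opposite strand, changed by 0.19, 0.07, 0.27 and −0.05 in males after 2,4-BPS, BPSIP, BPS and E2, and whether counting used strand is not stated.

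Jund, whose protein is the JUN of resting cells, varied least. In females it had 51.1, 54.8 and 60.8 CPM in BPSIP, 54.7, 54.6 and 56.5 CPM in BPS and 62.7, 77.5 and 64.9 CPM in E2 livers, against 41.0, 41.5 and 42.6 CPM in control livers. All of these libraries lay above all controls, with rises of 0.41 ± 0.08, 0.42 ± 0.08 and 0.71 ± 0.08 (adjusted p = 6.38e-05, 0.00019 and 8.99e-09). In 2,4-BPS livers it was 45.3, 36.9 and 45.9 CPM (0.04 ± 0.08, 95% interval −0.12 to 0.20). Against the mean of the other 3 exposed female groups 2,4-BPS gave −0.47 (adjusted p = 7.21e-07), and BPSIP and BPS gave 0.02 and 0.03 and did not pass. Among males Jund fell in BPS livers, with 41.3, 42.3 and 37.1 CPM against 57.2, 52.6 and 57.3 CPM in the libraries labelled male control (−0.48 ± 0.06, adjusted p = 1.93e-09; −0.56 and, mixed, −0.47). In male E2 livers, at 62.3, 62.3 and 66.0 CPM, the rise was 0.20 ± 0.06 (adjusted p = 0.00743). It did not pass without the third E2 library (0.17) or without the second library labelled male control (0.15), and it turned to −0.064 in the mixed comparison, while it was 0.36 and passed against the other exposed males. Male BPSIP and 2,4-BPS gave 0.12 ± 0.06 and −0.11 ± 0.06, short of the threshold. BPSIP passed, higher, against the other exposed males (0.25, adjusted p = 4.12e-05) and gave −0.11 in the mixed comparison (adjusted p = 0.0538). 2,4-BPS passed, lower, in the mixed comparison (−0.25, adjusted p = 1.77e-05) and gave −0.05 against the other exposed males (adjusted p = 0.495).

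Atf3, a zipper gene of the stress response, was highest in female BPSIP livers. It had 6.46, 5.08 and 6.05 CPM there, against 2.45, 2.13 and 2.25 CPM in female control livers, and rose 2.57-fold (1.36 ± 0.21, adjusted p = 2.16e-06). The other females lay between, with 3.09 ± 0.190 CPM in 2,4-BPS, 3.37 ± 1.17 CPM in BPS and 3.04 ± 0.311 CPM in E2 livers (mean ± SD, n = 3 each; adjusted p = 0.162, 0.0667 and 0.193). BPS held the widest spread, 3.30, 2.24 and 4.57 CPM, and passed without its second library (0.79, adjusted p = 0.0127). In males Atf3 fell in 2,4-BPS livers, with 1.08, 0.994 and 1.22 CPM against 2.63, 2.26 and 3.04 CPM in the libraries labelled male control (−1.26 ± 0.31, adjusted p = 0.00067; −0.98 and, mixed, −0.73, both past the threshold). In male BPSIP livers, where Fos and Jun were highest, Atf3 was 1.41, 2.51 and 1.70 CPM (−0.49 ± 0.30, 95% interval −1.08 to 0.11; 0.05 and, mixed, −0.38, neither past the threshold). Male BPS and E2 gave −0.11 ± 0.29 and −0.23 ± 0.29, with 0.55 and 0.39 against the other exposed males and −0.17 and −0.25 mixed, none past the threshold. Markers of macrophages (10 of 10 detected) summed to 1800 to 2046 CPM in female BPSIP and 1220 to 1273 CPM in female control livers, and those of neutrophils (10 of 10) to 54.4 to 71.6 against 33.8 to 43.1 CPM. Their part in the Atf3 change was not tested.

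Egr1, the zinc finger factor gene, moved in every direction. It had 41.4, 39.6 and 39.9 CPM in male BPSIP livers and 2.16, 2.76 and 4.19 CPM in male BPS livers, against 11.3, 11.3 and 13.3 CPM in the libraries labelled male control. In BPSIP livers it rose 3.38-fold (1.75 ± 0.12, adjusted p = 3.64e-19; 2.35 ± 0.09 against the other exposed males and 1.45 ± 0.07 mixed). In BPS livers it fell (−2.0 ± 0.14, adjusted p = 4.45e-18), and the value against the other exposed males was −2.66 ± 0.13 (adjusted p = 1.62e-25). This call ended in the mixed comparison (−0.04 ± 0.08, adjusted p = 0.758). Female control livers, which enter the mixture, had 25.0, 22.9 and 23.6 CPM. Within exposed males, every BPS library lay below every other. Male E2 livers had 15.9, 12.4 and 15.8 CPM and overlapped with the libraries labelled male control; the change of 0.30 ± 0.12 just passed (adjusted p = 0.046). It was lost with DESeq2 (adjusted p = 0.0591) and without E2 replicate 1 or 3 or replicate 1 or 2 of the libraries labelled male control (0.24 to 0.26). It passed against the other exposed males (0.41) and in the mixed comparison (0.62). Male 2,4-BPS livers had 11.7, 10.7 and 11.7 CPM (−0.08 ± 0.12), with −0.10 against the other exposed males (adjusted p = 0.54) and 0.47 in the mixed comparison (adjusted p = 7.41e-06).

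Egr1 was the member with the most female calls. It fell in 2,4-BPS livers to 16.8, 17.4 and 14.1 CPM, in BPSIP livers to 9.86, 10.6 and 9.96 CPM and in BPS livers to 16.0, 17.8 and 15.7 CPM. It rose in E2 livers to 30.2, 31.6 and 35.5 CPM, against the control values above. No group overlapped with the controls, and the changes were −0.56 ± 0.09, −1.23 ± 0.10, −0.52 ± 0.09 and 0.44 ± 0.09 in that order (adjusted p = 2.04e-05, 4.45e-13, 8.64e-05 and 0.000319). All 3 bisphenols therefore lay below control and E2 above it. Against the mean of the other exposed female groups, 2,4-BPS and BPS gave −0.12 and −0.07 and did not pass.

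Ier2, a small nuclear response gene, was highest in male BPSIP and lowest in male BPS livers, as Egr1 was. It had 46.4, 40.4 and 37.3 CPM in male BPSIP and 19.9, 20.9 and 17.2 CPM in male BPS livers, against 28.7, 28.1 and 28.6 CPM in the libraries labelled male control. The rise after BPSIP was 0.55 ± 0.08 and the fall after BPS −0.57 ± 0.09 (adjusted p = 8.24e-08 and 5.41e-08). Values against the other exposed males were 0.66 and −0.83, and mixed values 0.27 and −0.38, all past the threshold. In male E2 livers (31.9, 33.3 and 36.1 CPM) the rise of 0.26 ± 0.08 (adjusted p = 0.01) was lost without the third E2 library (0.21) and in the mixed comparison (0.08), and passed against the other exposed males (0.28). Male 2,4-BPS gave −0.03 ± 0.08, with −0.11 and, mixed, −0.09, none past the threshold. In females Ier2 rose in BPS livers (30.2, 32.3 and 33.0 CPM) and E2 livers (33.4, 37.4 and 36.5 CPM) and fell in BPSIP livers (22.7, 21.5 and 20.9 CPM), against 25.5, 27.1 and 25.7 CPM in control livers. The changes were 0.30 ± 0.08, 0.45 ± 0.08 and −0.27 ± 0.08 (adjusted p = 0.00521, 1.94e-05 and 0.00554), and 2,4-BPS gave 0.09 ± 0.08.

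Ier3, a survival gene of the same class, was low throughout. Female BPSIP livers had 2.00, 2.25 and 1.76 CPM, against 1.46, 1.04 and 0.896 CPM in female control livers, with no overlap (0.82 ± 0.31, adjusted p = 0.0352). The call rested on single libraries: it was lost without BPSIP replicate 1 or 2 and without control replicate 2 or 3 (0.68 to 0.83). It was also lost against the mean of the other 3 exposed female groups (0.55, adjusted p = 0.0677). It was the only call for Ier3 against a control group. The other 7 values lay between −0.43 and 0.54. Male values lay between −0.81 and 0.47 against the other exposed males and between 0.21 and 0.64 in the mixed comparison, and none passed.

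Myc, the growth regulator, was highest in male 2,4-BPS and female E2 livers. Female E2 livers had 22.8, 24.1 and 23.3 CPM, against 5.71, 6.18 and 5.20 CPM in female control livers, a 4.09-fold rise (2.03 ± 0.12, adjusted p = 9.52e-16). It also rose in female 2,4-BPS livers (10.0, 9.84 and 10.1 CPM; 0.82 ± 0.13, adjusted p = 4.88e-06). In female BPS livers (7.70, 6.74 and 9.60 CPM) the rise was 0.50 ± 0.13 (adjusted p = 0.00454), which was 0.35 and did not pass without the third BPS library (adjusted p = 0.0805). Female BPSIP livers, at 7.20, 7.05 and 6.08 CPM, gave 0.25 ± 0.13 (adjusted p = 0.123). Set against the other exposed females, which hold the E2 group, these 3 values became −0.11, −0.53 and −0.87, and the last 2 passed.

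In males Myc had 33.2, 38.5 and 36.1 CPM in 2,4-BPS livers, 6.37, 5.33 and 5.87 CPM in BPSIP livers, 9.08, 10.3 and 9.55 CPM in BPS livers and 10.9, 12.8 and 10.3 CPM in E2 livers. The libraries labelled male control had 20.0, 17.9 and 20.3 CPM. Myc rose after 2,4-BPS (0.89 ± 0.10, adjusted p = 2.63e-11) and fell after the others (−1.72 ± 0.11, −1.02 ± 0.11 and −0.76 ± 0.11; adjusted p = 1.07e-20, 2.41e-12 and 1.53e-08). The mixed values were 0.21, −1.76, −1.30 and −1.15, all past the threshold (adjusted p = 0.0307 for the first). Against the other exposed males, 2,4-BPS gave 2.06 ± 0.08, BPSIP −1.42 ± 0.10 and BPS −0.49 ± 0.09, all past the threshold. E2 gave −0.15 ± 0.09 and did not pass (adjusted p = 0.232). Male BPSIP livers thus held the highest Fos and the lowest Myc of the male groups. After E2, Myc was higher in females and lower in males than in the control libraries of each sex.

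**Figure D4:**
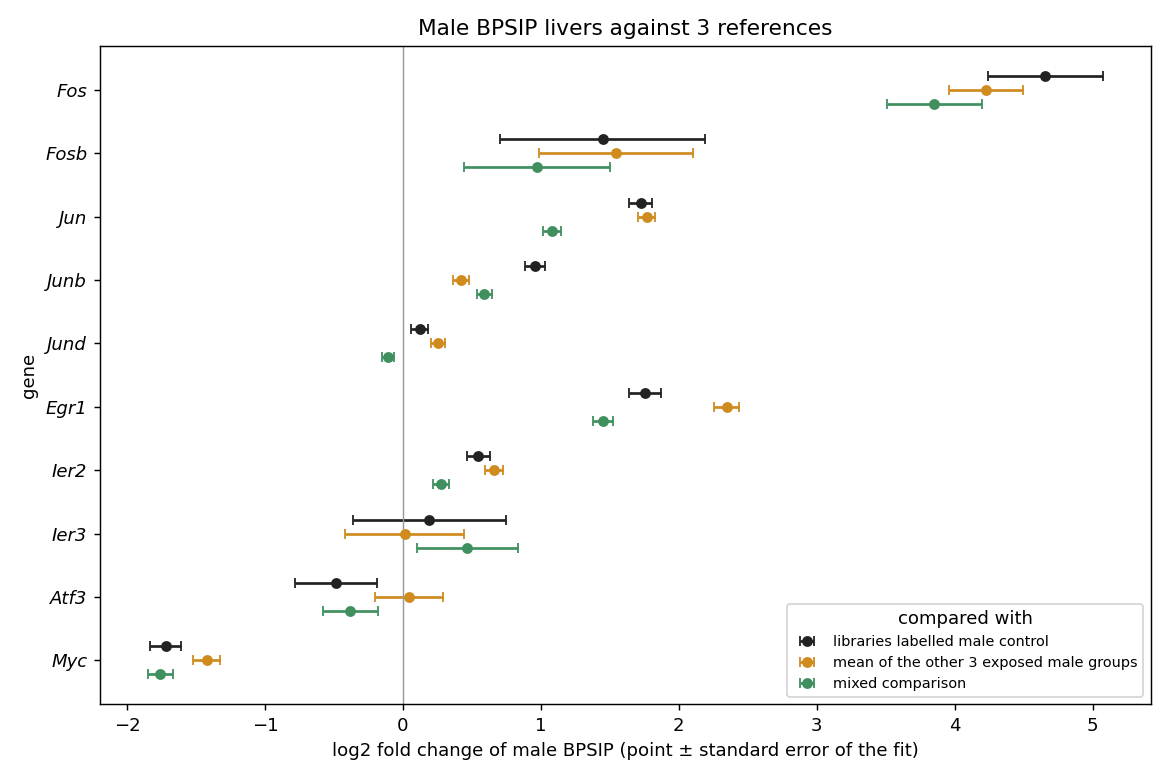
Log2 fold change of the 10 genes in male BPSIP livers against the libraries labelled male control, against the mean of the other 3 exposed male groups, and in the mixed comparison (exposed male libraries mixed with 41.8% of female control libraries); points with bars are values ± standard error of the fit. Fos lies at 4.66, 4.23 and 3.85, and Jun, Egr1, Junb and Ier2 are above 0 and Myc below 0 in all 3.

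Fos, Jun, Junb, Egr1 and Ier2 rose and Myc fell in all 3 comparisons. Against the other 3 exposed male groups 7 genes rose and 1 fell, beside 31.3% of all genes called, and in the mixed comparison 5 rose and 1 fell, beside 38.2%. In male BPS livers 7 fell and 0 rose against the other exposed males (35.8% of all genes), and 5 fell and 0 rose in the mixed comparison (44.2%). The other exposed males hold the BPSIP group there, and the 7 include Fos, which did not pass against the libraries labelled male control (−0.38). After 2,4-BPS 2 rose and 3 fell against the other exposed males (25.8%) and 3 and 3 in the mixed comparison (40.1%), and after E2 5 rose and 0 fell (31.5%) and 3 and 1 (37.7%). Summed over the 10 genes, the level was 284 to 318 CPM in male BPSIP and 105.0 to 109.7 CPM in male BPS livers, and 199 to 204 CPM in male 2,4-BPS and 205 to 214 CPM in male E2 livers, against 157 to 169 CPM in the libraries labelled male control. The same sum was 131 to 135 CPM in female 2,4-BPS, 143 to 147 CPM in female BPSIP, 166 to 172 CPM in female BPS and 197 to 229 CPM in female E2 livers, against 138.5 to 139.6 CPM in female control livers.

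Compounds were compared with each other at the same nominal intake and age, in 6 pairs per sex, with p adjusted over all genes of the fit; these pairs do not use the libraries labelled male control. In males BPSIP differed from BPS in 7 genes, 6 higher and 1 lower, where 35.4% of all genes were called. Fos was 33.2 ± 4.18 CPM in BPSIP and 1.03 ± 0.426 CPM in BPS livers (SD, n = 3 each), and the edgeR difference was 5.04 ± 0.43 (adjusted p = 2.34e-06). Egr1 differed by 3.75 ± 0.14, Jun by 2.28 ± 0.09, Junb by 1.44 ± 0.07, Ier2 by 1.12 ± 0.08 and Jund by 0.61 ± 0.06, while Myc was lower (−0.70 ± 0.12). The compounds differ by an isopropyl ether. 2,4-BPS, the positional isomer of BPS, differed from BPS in 6 genes in males (27.5% of all genes): Junb by 1.70 ± 0.07, Egr1 by 1.92 ± 0.14, Myc by 1.91 ± 0.11, Ier2 by 0.54 ± 0.08 and Jund by 0.38 ± 0.06 were higher, and Atf3 was lower (−1.15 ± 0.31). Fos did not pass there (0.79 ± 0.50, 95% interval −0.32 to 1.90), but did without replicate 3 of all groups (0.95, adjusted p = 0.0196).

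2,4-BPS and BPSIP differed in 7 genes (31.3% of all genes), from Fos at −4.25 ± 0.40 to Myc at 2.61 ± 0.11. BPSIP and E2 differed in 5 (26.4% of all genes), with Fos at 3.40 ± 0.37, Egr1 at 1.45 ± 0.12 and Myc at −0.96 ± 0.12. Junb did not pass between them (0.07, 95% interval −0.07 to 0.21). 2,4-BPS and E2 differed in 7 (28.4% of all genes), with Myc at 1.66 ± 0.11 and Jun at −1.14 ± 0.09. BPS and E2 differed in 6, all lower in BPS (37.5% of all genes), with Egr1 at −2.30 ± 0.14, Junb at −1.37 ± 0.07 and Jun at −1.33 ± 0.09.

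In females the same pairs were compared. BPSIP and BPS differed in 5 genes (39.3% of all genes): Atf3 was higher in BPSIP (0.79 ± 0.21), and Fos (−0.85 ± 0.27), Junb (−0.74 ± 0.10), Egr1 (−0.71 ± 0.10) and Ier2 (−0.56 ± 0.08) were lower. Jund did not pass between them, with an interval of −0.16 to 0.15. 2,4-BPS and BPS also differed in 5 (19.5% of all genes), all lower in 2,4-BPS, led by Jun (−1.0 ± 0.10) and Fos (−0.96 ± 0.28), but 2 did without replicate 1 of all groups and 3 without replicate 2. Egr1 did not pass for that pair (−0.04, 95% interval −0.24 to 0.15). 2,4-BPS and BPSIP differed in 7 (35.5% of all genes), with Jun at −1.14 ± 0.10, Atf3 at −0.92 ± 0.21 and Egr1 at 0.67 ± 0.10. Against E2, 2,4-BPS had 5 genes lower and none higher (29.8% of all genes), BPSIP 5 lower and 1 higher (38.4% of all genes) and BPS 3 lower and 2 higher (25.6% of all genes), the last pair with 3 calls without replicate 2 or 3. Myc and Egr1 were lower than in E2 livers after each bisphenol, Myc by −1.22 ± 0.12, −1.78 ± 0.12 and −1.53 ± 0.12 for 2,4-BPS, BPSIP and BPS. Over the 6 pairs and 10 genes 33 differences passed in females and 38 in males. Fos between BPS and E2 in females (0.74 ± 0.27) and Ier2 between 2,4-BPS and BPS (−0.21 ± 0.08) were lost on leaving out any of the 3 replicate numbers, and without the filter on low counts. The Fos difference between 2,4-BPS and BPS was lost without replicate 1 or 2 of all groups (−0.90 and −0.85), that of Junb in the same pair without replicate 1 or 3 (−0.32 and −0.42), and that of Fos between BPSIP and BPS without replicate 2 or 3 (−0.67 and −0.83). Leaving out each replicate number gave 25 to 29 calls in females and 34 to 38 in males.

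The same exposure was compared between sexes without the control libraries. At BPSIP the female livers had Fos at 1.75 ± 0.545 CPM and the male livers at 33.2 ± 4.18 CPM (female minus male −4.24 ± 0.32 on the log2 scale, adjusted p = 3.37e-12). Egr1 (−1.99 ± 0.11), Junb (−1.54 ± 0.09), Jun (−1.45 ± 0.09) and Ier2 (−0.93 ± 0.08) were also lower in females, whereas Atf3 (1.64 ± 0.24) and Ier3 (1.42 ± 0.40) were higher. That makes 7 genes, with 51.2% of all genes called. At BPS 7 genes were higher in females and none lower (39.5% of all genes), led by Egr1 (2.44 ± 0.13), Fos (1.61 ± 0.36) and Ier3 (1.32 ± 0.43), the last lost without replicate 3 (0.91, adjusted p = 0.205). At 2,4-BPS 6 differed (47.4% of all genes), with Myc at −1.85 ± 0.11, Atf3 at 1.48 ± 0.26 and Junb at −1.47 ± 0.09. At E2 4 differed (34.6% of all genes), among them Egr1 at 1.14 ± 0.11, Myc at 1.05 ± 0.11 and Junb at −1.10 ± 0.09. Animals of both sexes differ in more than exposure, so these values hold the sex difference itself.

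The exposure effects of both sexes were then tested against each other in a fit of all 30 libraries, which does rest on the libraries labelled male control. Effects differed for 8 genes at BPSIP (36.3% of all genes), 7 at BPS (30.9%), 3 at 2,4-BPS (34.8%) and 3 at E2 (16.9%). With the other 3 exposed groups of each sex in place of the controls, a choice made after seeing the data, 22 differences passed over the 4 exposures in place of 21, beside 28.0% of all genes at 2,4-BPS, 41.7% at BPSIP, 29.3% at BPS and 30.4% at E2. At BPSIP the Fos difference was −4.15 ± 0.48 with controls and −4.50 ± 0.37 without. At BPS that of Egr1 was 1.46 ± 0.18 and 2.56 ± 0.15, and at E2 that of Myc was 2.81 ± 0.16 and 1.68 ± 0.13. For BPS the male reference without controls holds the BPSIP livers, where Egr1 and Fos were highest. The differences of Atf3 and Egr1 at 2,4-BPS and of Jund at E2 passed with controls and not without (adjusted p = 0.101, 0.908 and 0.49).

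**Figure D5:**
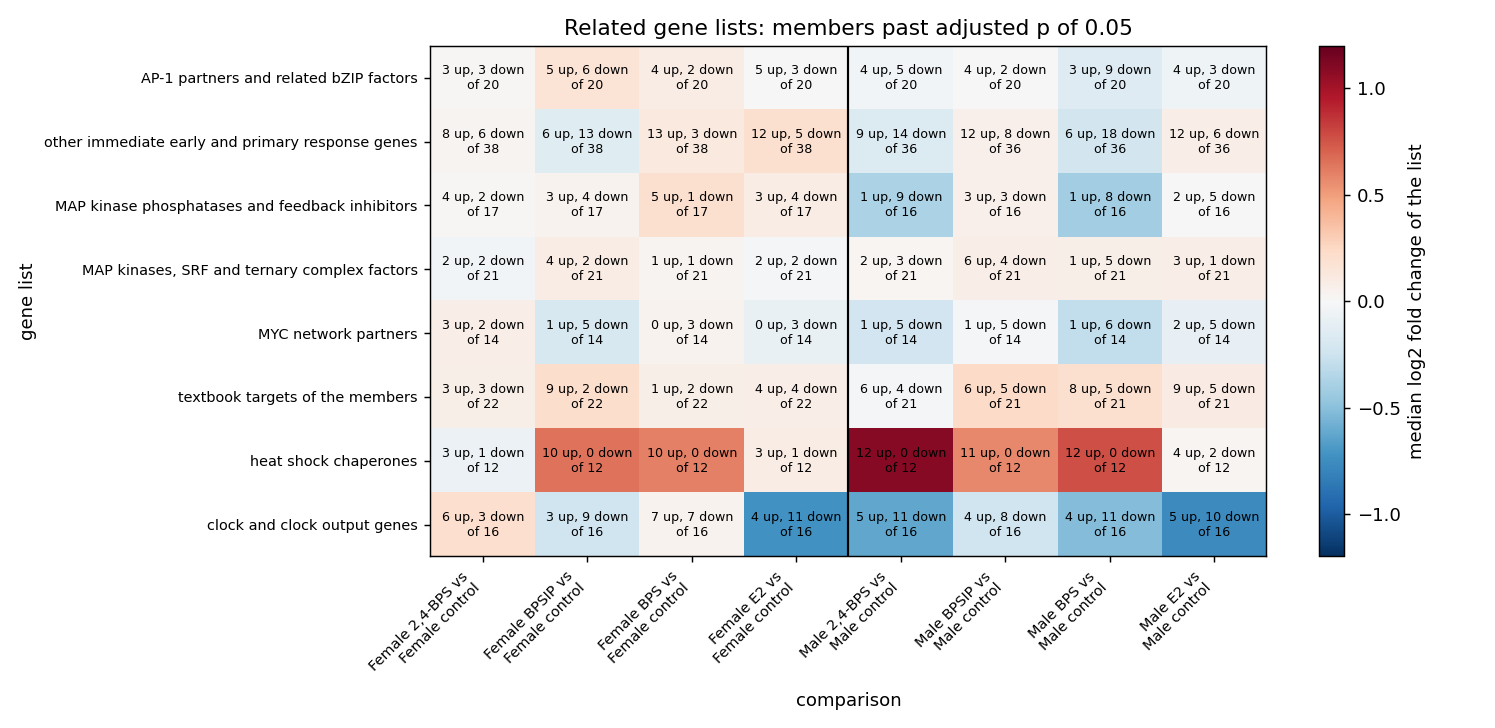
Counts of genes past an adjusted p of 0.05 in 8 related lists (rows) for the 8 comparisons with control (columns), coloured by the median log2 fold change of the list. Heat shock chaperones rose as 12 of 12 in male 2,4-BPS and male BPS livers, where 18.9% and 20.6% of all genes rose. Clock genes fell as 11 of 16 in female E2 livers, where 10.6% of all genes fell. Male columns use the libraries labelled male control.

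Related genes were counted from 8 lists. Of all genes, 19.3%, 38.6%, 16.8% and 21.0% passed in females after 2,4-BPS, BPSIP, BPS and E2. In males 38.2%, 34.9%, 43.2% and 33.6% passed in that order. Against the other exposed males these shares were 25.8%, 31.3%, 35.8% and 31.5%, and in the mixed comparison 40.1%, 38.2%, 44.2% and 37.7%. They stand beside all list counts that follow, and a count near such a share is not a result about the list. Other immediate early and primary response genes rose as 13 and fell as 3 of 38 in female BPS livers, and rose as 6 and fell as 13 of 38 in female BPSIP livers. In female 2,4-BPS livers 8 rose and 6 fell, and in female E2 livers 12 rose and 5 fell. In males 12 rose and 8 fell of 36 after BPSIP, 6 rose and 18 fell after BPS, 9 rose and 14 fell after 2,4-BPS, and 12 rose and 6 fell after E2. List medians ran between −0.22 and 0.19, beside medians over all genes between −0.02 and 0.00. Against the other 3 exposed male groups 14 rose and 5 fell after BPSIP, 3 rose and 15 fell after BPS, 8 rose and 13 fell after 2,4-BPS, and 17 rose and 3 fell after E2. In the mixed comparison 8 rose and 9 fell after BPSIP, 7 rose and 14 fell after BPS and after 2,4-BPS, and 14 rose and 10 fell after E2. Values of single male genes that follow are against the libraries labelled male control. Klf10, a TGF-beta inducible factor gene, fell in female BPSIP livers (10.1 ± 1.66 against 40.0 ± 2.23 CPM; −1.98 ± 0.09). Nfkbiz, an NF-kappa-B regulator gene, rose in male E2 livers (31.1 ± 3.65 CPM, against 7.81 ± 1.53 CPM in the libraries labelled male control). Tsc22d1 fell in female 2,4-BPS livers (−1.77 ± 0.06) and rose in male E2 livers (1.57 ± 0.06), Bhlhe40, a clock-linked repressor gene, fell in female E2 livers (−1.27 ± 0.06), and Plk3 fell in male BPS livers (−0.90 ± 0.06).

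Among 20 partners and related zipper genes 3 rose and 9 fell in male BPS livers, and 4 rose and 2 fell in male BPSIP livers. The female counts were 3 and 3 for 2,4-BPS, 5 and 6 for BPSIP, 4 and 2 for BPS and 5 and 3 for E2, risen first. Male 2,4-BPS and E2 had 4 risen with 5 and 3 fallen. The male BPSIP count turned with the comparison: 7 rose and 0 fell against the other exposed males, and 2 rose and 7 fell in the mixed comparison. Against the other exposed males 1 rose and 6 fell after BPS, 2 and 5 after 2,4-BPS and 5 and 2 after E2, and in the mixed comparison 3 rose after each, with 7, 8 and 6 fallen. Atf5 rose in male BPSIP livers (454 ± 24.1 CPM, against 152 ± 1.77 CPM in the libraries labelled male control; 1.58 ± 0.04) and in female E2 livers (0.93 ± 0.06). Maff fell in male E2 livers (−2.19 ± 0.15), and Creb3l3 in female BPSIP livers (−0.62 ± 0.05). Of 16 MAP kinase phosphatases and feedback inhibitors, genes that close the response, 8 fell and 1 rose in male BPS livers and 9 fell and 1 rose in male 2,4-BPS livers, with medians of −0.42 and −0.38. In male BPSIP livers 3 fell and 3 rose, and in male E2 livers 5 fell and 2 rose. Against the other exposed males none fell and 6 rose after BPSIP, 5 fell and 1 rose after BPS, 5 fell and 2 rose after 2,4-BPS, and none fell and 3 rose after E2. In the mixed comparison, of 17 genes, 4 fell and 3 rose after BPSIP, 8 and 3 after BPS, 9 and 2 after 2,4-BPS and 6 and 2 after E2. Dusp1, a phosphatase gene induced with Fos, fell in male BPS (−0.75 ± 0.09) and female 2,4-BPS livers (−0.74 ± 0.09). Dusp6 rose in female BPS livers (0.67 ± 0.07), where 5 of 17 rose and 1 fell. Spry4 fell in male BPS (−1.2 ± 0.14) and female BPSIP livers (−0.71 ± 0.12), and Nfkbia in male 2,4-BPS livers (−0.81 ± 0.07). The other female counts of this list were 4 risen and 2 fallen for 2,4-BPS, 3 and 4 for BPSIP and 3 and 4 for E2.

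Of 21 MAP kinases, SRF and ternary complex factor genes, at most 6 rose and at most 5 fell in any comparison, with medians between −0.03 and 0.09. In males at most 5 rose and 4 fell against the other exposed males, and at most 4 rose and 6 fell in the mixed comparison. Srf itself rose in female E2 livers (0.60 ± 0.11) and Mrtfa in female BPSIP livers (0.77 ± 0.14), and Mrtfb (−0.89 ± 0.09) and Elk4 (−0.52 ± 0.10) fell in male BPS and Rps6ka1 in female BPS livers (−0.65 ± 0.09). Of 14 MYC partners, at most 3 rose and at most 6 fell, with medians between −0.29 and 0.08; against the other exposed males at most 5 rose and 6 fell, and in the mixed comparison at most 1 rose and 6 fell. Mycl, a MYC relative, fell in BPSIP livers of both sexes (−2.02 ± 0.14 in females and −1.38 ± 0.17 in males). Mlxipl fell in female E2 (−0.73 ± 0.06) and male BPS livers (−0.82 ± 0.06), Mga fell in male BPS livers (−0.62 ± 0.08), and Mlx rose in female BPSIP livers (0.64 ± 0.08). Of the textbook targets of the 10 factors, 9 rose and 2 fell of 22 in female BPSIP livers, 4 and 4 in female E2, 3 and 3 in female 2,4-BPS, and 1 and 2 in female BPS livers. In males 6 rose and 5 fell of 21 after BPSIP, 8 and 5 after BPS, 6 and 4 after 2,4-BPS and 9 and 5 after E2. The balance turned after BPS and 2,4-BPS against the other exposed males, where 5 rose and 7 fell after BPS, 4 and 6 after 2,4-BPS, 5 and 3 after BPSIP and 7 and 3 after E2. In the mixed comparison, of 20 genes, 9 rose and 4 fell after BPSIP, 9 and 5 after BPS, 8 and 5 after 2,4-BPS and 10 and 5 after E2. Cdkn1a, the p21 gene, rose in E2 livers of both sexes (3.72 ± 0.12 in females and 1.79 ± 0.13 in males). Ccnd1, the cyclin D1 gene and an AP-1 target, fell in male BPS livers (9.35 ± 0.115 CPM, against 48.8 ± 2.72 CPM in the libraries labelled male control; −2.40 ± 0.10). Cad (1.55 ± 0.12) and Odc1 (0.84 ± 0.06), MYC targets of nucleotide and polyamine synthesis, rose in female BPSIP livers, and Ldha rose in male E2 livers (1.03 ± 0.04). Myc did not pass in the former and fell in the latter. Against the other exposed males Myc after E2 was −0.15 and did not pass. The part of Myc in these values was not tested.

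Heat shock chaperones answer to stress and clock genes to the hour. All 12 chaperones rose in male 2,4-BPS and male BPS livers, 11 in male BPSIP and 10 each in female BPSIP and female BPS livers, with medians of 1.10, 0.77, 0.57, 0.65 and 0.61 in that order. In E2 livers 3 rose and 1 fell in females and 4 rose and 2 fell in males, and in female 2,4-BPS livers 3 rose and 1 fell. Hspb1, a small chaperone gene, had 117 ± 5.41 CPM in male 2,4-BPS livers, against 5.22 ± 1.02 CPM in the libraries labelled male control. Hsph1 (2.04 ± 0.05) and Hsp90aa1 (2.12 ± 0.05) rose there too, and in female BPSIP livers (1.30 ± 0.06 and 1.40 ± 0.06), and Hspa1b rose in female BPS livers (2.37 ± 0.13). Against the other 3 exposed male groups 12 of 12 rose in male 2,4-BPS livers, 2 rose and 6 fell in BPSIP, 8 rose and 3 fell in BPS, and 12 of 12 fell in E2 livers. In the mixed comparison 12, 10 and 12 rose and none fell after 2,4-BPS, BPSIP and BPS, while 2 rose and 6 fell after E2. Among the 10 genes, all but Atf3 and Myc had their lowest mean of the male groups in male BPS livers. For Fos, Fosb, Jun and Ier3 the difference from the next group did not pass (edgeR, adjusted p = 0.615, 0.871, 0.108 and 0.586). Fos, Fosb, Jun, Egr1 and Ier2 had their highest mean in male BPSIP livers, where Fosb did not pass against the next group (adjusted p = 0.24). Of 16 clock genes 11 fell and 4 rose in female E2 and 10 fell and 5 rose in male E2 livers. In males 11 fell and 5 rose after 2,4-BPS, 8 and 4 after BPSIP, and 11 and 4 after BPS, fallen first. Against the other exposed males these became 6 and 4, 5 and 9, and 7 and 6, with 9 and 5 after E2, and in the mixed comparison 11, 11, 12 and 12 fell after 2,4-BPS, BPSIP, BPS and E2, with 4 risen each. In females 3 fell and 6 rose after 2,4-BPS, 9 and 3 after BPSIP, and 7 and 7 after BPS. Dbp, a clock output gene, had 10.9 ± 1.11 CPM in female E2 and 105 ± 1.10 CPM in female control livers (−3.28 ± 0.08), and 16.4 ± 1.32 CPM in male E2 livers against 103 ± 3.78 CPM in the libraries labelled male control (−2.64 ± 0.07). Tef (−1.17 ± 0.06 and −1.35 ± 0.05) and, in females, Ciart (−3.56 ± 0.16) fell with it in E2 livers. Nr1d1, the REV-ERB alpha gene, rose in male BPSIP livers (103 ± 3.53 CPM, against 28.5 ± 0.654 CPM in the libraries labelled male control). The labels give neither the hour nor the manner of collection, and the part of either list in the 10 genes' values was not tested.

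Genes of most like pattern were listed by the highest Pearson r of log2 CPM over the 15 libraries of a sex, as a description over libraries that share groups. In females Egr1 was closest to Alpl (0.983) and Wrnip1 (0.976), Ier2 to Rarres1 (0.968), Myc to Slc45a3 (0.965) and Rps2 (0.958), Jun to Hsp90ab1 (0.942), Jund to Capn3 (0.931), Atf3 to Srp68 (0.929) and Junb to Mpc2 (0.927). Fos reached 0.878 with Gnl3, Ier3 0.836 with Atf6b and Fosb 0.765 with Dhx37. In males, added after seeing the data, Fos was closest to Ccn1 (0.952), another primary response gene, with 19.7 ± 1.10 CPM in BPSIP livers against 4.02 ± 0.962 CPM in the libraries labelled male control (2.30 ± 0.16, adjusted p = 1.21e-19). Egr1 was closest to Pck1 (0.982), the gluconeogenic enzyme gene, which had 4996 ± 47.5 CPM in BPSIP and 3072 ± 120.0 CPM in BPS livers against 4017 ± 84.6 CPM in the libraries labelled male control. Jun was closest to Hsd17b6 (0.971), Myc to Cyb5r3 (0.969), Junb to Nktr (0.967) and Ier2 to Atoh8 (0.966).

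Whether Fos moved with the other members from animal to animal was asked within groups, on deviations of log2 CPM from the group mean over 30 libraries. Pearson's r ran from −0.222 with Ier3 to 0.412 with Egr1, and Spearman's rho from −0.282 to 0.228 with the same genes. Of the 9 relations 0 passed (permutation test within groups, two-sided, adjusted p = 0.769 for the smallest by r and 0.89 by rho), and 0 had an unadjusted p under 0.05. For Egr1 the permutation p was 0.108 by r and 0.335 by rho. Without the 2 libraries farthest from the median of Fos its r was 0.386, and that of Ier3 was −0.466. In male libraries alone r of Fos with Egr1 was 0.598 over 15 libraries (permutation p = 0.0173, adjusted p = 0.156) and rho 0.664 (permutation p = 0.0197, adjusted p = 0.178), with r at 0.703 without the 2 farthest. In female libraries r was −0.431 (permutation p = 0.0998, adjusted p = 0.449) and rho −0.454 (permutation p = 0.116, adjusted p = 0.376), with r at −0.324 without the 2 farthest.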

How the data were processed

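Liver RNA-seq of 30 libraries, 3 in each of 10 groups, was read from 2 deposited tables. One holds raw counts per gene symbol, which the authors made with HISAT2 and HTSeq, per the submitters' processing notes, which also name R 3.2.0 and DESeq2. The other holds FPKM, which the authors computed from those counts with one length per gene; counts and FPKM agreed on this with a largest relative deviation of 3.46e-06. Genome build, annotation and use of strand in counting: not given in the sources used here. Both tables list 17990 genes.

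The deposited counts went into edgeR 4.0.16 (R 4.3.3) with TMM factors, the filterByExpr filter on low counts, a robust quasi-likelihood fit and Benjamini-Hochberg adjustment over all genes of a fit, at 0.05. The 15 female libraries (13874 genes), the 15 male libraries (13474 genes) and all 30 (14131 genes) were fitted. CPM in the text are TMM-normalised, from the fit of 30. The comparisons with control share the control libraries of a sex. Replicates are single livers of offspring from different dams. The p-values rest on the spread between animals within groups, estimated jointly over all groups of a fit and moderated across genes. Residual degrees of freedom were 10 for each sex and 20 for all 30 libraries. No 2 libraries of a group agreed within sampling noise (lowest chi-square per gene 5.66). Counts were also simulated with the same spread for every gene and 200 changed genes of at least 1 CPM on average. All changed genes were recovered for E2 against control at a log2 change of 1 (100% in each sex). Of unchanged genes 0.0749% (females, 13554 genes) and 0.0927% (males, 13147 genes) were called. This does not measure power for Fosb, Ier3 and Fos, whose replicates varied by medians of 65.0%, 27.9% and 23.6% (CV).

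The 10 genes, the 8 related lists and the marker lists were chosen with earlier results of these data known. In each list and sex the genes named are those with the 3 smallest p among calls, in the comparison where that p is smallest; some genes the rule picks are not reported here. Genes of like pattern are those with the highest Pearson r among genes of at least 1 CPM on average. Correlations used log2 CPM with a prior count of 2 and 100000 shuffles within groups. Promoters were read from RefSeq tables. Alternatives were RLE factors, no filter, DESeq2 1.42.0, a replicate block, only 6 libraries, libraries left out, and other references.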

Additional observations from a re-analysis of the deposited data

Results flagged for a closer look

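The exposure effect on the log2 scale, each exposed group against control, was tested between the sexes in the fit of all 30 libraries (edgeR quasi-likelihood test), and 21 differences, female minus male, passed. All of them rest on the libraries labelled male control, so values with the other 3 exposed groups of each sex in place of control are given beside them.

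For BPSIP the differences were −4.15 ± 0.48 for Fos, −2.98 ± 0.16 for Egr1, −1.53 ± 0.12 for Junb, −0.82 ± 0.13 for Jun and −0.81 ± 0.11 for Ier2, all lower in females, and 1.98 ± 0.17 for Myc, 1.86 ± 0.35 for Atf3 and 0.30 ± 0.10 for Jund. The Jund value was lost without replicate 1 or 3 of all groups (0.30 and 0.22). With the other exposed groups in place of control these became −4.50 (Fos), −3.35 (Egr1), −0.89 (Junb), −1.37 (Jun), −1.2 (Ier2), 0.57 (Myc), 0.85 (Atf3) and −0.22 (Jund), all past the threshold.

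For BPS all were higher in females: 1.70 ± 0.52 for Fos, 1.5 ± 0.17 for Myc, 1.46 ± 0.18 for Egr1, 1.29 ± 0.14 for Jun, 0.88 ± 0.10 for Jund, 0.85 ± 0.12 for Ier2 and 0.63 ± 0.13 for Junb. The Fos value was lost without replicate 1 (1.49, adjusted p = 0.0991). With the other exposed groups they became 3.30 (Fos), −0.073 (Myc), 2.56 (Egr1), 1.44 (Jun), 0.55 (Jund), 1.01 (Ier2) and 1.98 (Junb), and only that of Myc did not pass (adjusted p = 0.741). The male reference then holds the BPSIP livers, where Fos averaged 33.2 CPM. In males alone Fos after BPS did not pass against the libraries labelled male control (−0.38, adjusted p = 0.615).

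For 2,4-BPS they were 1.70 ± 0.36 for Atf3, −1.45 ± 0.12 for Junb and −0.48 ± 0.16 for Egr1, the last lost without replicate 1 or 3 (−0.42 and −0.45). With the other exposed groups Junb gave −0.79 and passed, while Atf3 (0.64, adjusted p = 0.101) and Egr1 (−0.028, adjusted p = 0.908) did not. For E2 they were 2.81 ± 0.16 for Myc, −1.09 ± 0.12 for Junb and 0.52 ± 0.10 for Jund. With the other exposed groups Myc (1.68) and Junb (−0.30) passed and Jund did not (0.084, adjusted p = 0.49).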

How the results depend on the processing

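The number of genes called after male E2 was 6 and ranged from 3 to 7 when single libraries were left out, the 3 without E2 replicate 3. The other 7 counts against control, and the sums over pairs and over exposures, stayed within 1.5 times under the alternatives run. Of single pairs, 2,4-BPS against BPS in females had 5 calls, with 2 and 3 without replicate 1 and 2, and BPS against E2 in females had 5, with 3 without replicate 2 or 3. Some counts of related lists turned with the male comparison used, as given above. Of values past the threshold in either setting, direction turned in 12; turns of values that passed in neither are not counted. With the other 3 exposed female groups in place of female control, Jund after 2,4-BPS became −0.47, and Myc became −0.11 after 2,4-BPS, −0.87 after BPSIP and −0.53 after BPS. With the other 3 exposed male groups in place of the libraries labelled male control, Fos after 2,4-BPS became −1.43. In the mixed comparison Egr1 after 2,4-BPS became 0.47 and Jund after E2 −0.064. With other exposed groups in both sexes, the female minus male effects became −0.42 (2,4-BPS) and −0.22 (BPSIP) for Jund, −0.75 (BPS) and −0.74 (E2) for Atf3 and −0.073 (BPS) for Myc. These references hold other animals by construction. Of 280 single values, 280 kept direction and side of the threshold with RLE factors, 277 without the filter and 276 with DESeq2; of those with libraries left out 1021 did, 48 lost and 11 gained the call.

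Replicate numbers are not stated to mark litters or days, and same-numbered libraries deviated together (r over 0.1) in 2 of 24 pairs (−0.279 to 0.223). With the replicate block 277 values kept their call; Fos after male E2 passed (1.32, adjusted p = 0.0453), and Fos between BPS and E2 (0.73) and Ier2 between 2,4-BPS and BPS (−0.21) in females did not. Depth limits Fosb, with 1 to 34 counts a library, and Ier3, whose replicates varied by a median of 27.9% (CV).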
